A study of Solanum lycopersicum with 4 samples.

Results

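In tomato (Solanum lycopersicum) shoot meristems, 30 of 34727 listed gene identifiers were read in 1 of the 2 genotypes and were nearly or wholly unread in the other. They were chosen from the deposited values: both libraries of 1 genotype had to hold at least 8 normalised reads, and both libraries of the other at most 1. A normalised read is 1 read in 10000000 gene-assigned reads of a library. Of the 30 genes, 17 were read in the mutant only and 13 in the wild type only. Solyc04g081000 and Solyc06g059970 also met these thresholds and were set aside, since published nomenclature places them among the floral organ genes. Because the difference between genotypes chose the 30 genes, that difference is described here and not tested. "Only" is meant as the thresholds define it: 17 of the 30 had no read at all in the other genotype, 7 had 1 read there and 6 had 2 or 3.

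TERMINATING FLOWER (TMF), the mutated gene, encodes an ALOG protein of the nucleus that delays the change of the tomato shoot apex from leaf production to flower formation. Plants that lack its function flower early. The deposited table pairs no identifier with a name, and 0 of its 34727 identifiers, members or not, matched the reference gene table used here. For that reason no function is given for them, and they are described by level, position and neighbours. An identifier states the chromosome in the 2 digits after Solyc, and the digits after the g give the order of genes along it.

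The mutant carried a mutation in TMF, with no allele named in the labels, and the controls were labelled wild type. Meristems of both genotypes were collected 8 days after germination at the late vegetative stage, from greenhouse plants, and each of the 2 biological replicates per genotype was a pool from several plants. The labels do not state the stock from which either genotype came, so the TMF mutation and any other difference between the stocks cannot be told apart in this design. In a pool of tissue, fewer cells of a type and less RNA per cell cannot be told apart either.

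TMF (Solyc09g090180.1.1) was at 6.1 and 6.27 normalised reads in the 2 mutant libraries against 1238 and 2224 in the 2 wild-type ones. The mutant libraries lay far below the wild-type ones, as their labels state (log2 difference -7.85 ± 0.34 SE; limma, Benjamini-Hochberg adjusted p = 7.7e-05). The libraries held 17540331 to 28310492 gene-assigned reads. All 6 shoot meristem markers were read in every library, from 18 for CLV3 to 2797 for TKN2. Replicates of a genotype differed in some of them. In mutant replicates 1 and 2, WUS stood at 157 and 46.7, CLV3 at 114 and 25.7, and TKN2 at 2797 and 1062. TKN1 went the other way, at 600 and 975. In wild-type replicates 1 and 2, WUS stood at 51.9 and 92.7 and CLV3 at 18 and 66.6. The leaf gene RBCS2A, a Rubisco small subunit gene, was also read in every library, from 11347 to 18649, while the fruit gene PG2A was listed at 0 in all 4 and the pollen gene LAT52 in 3, with 1.71 in mutant replicate 2. In RBCS2A the libraries of the genotypes overlapped. The leaf gene RBCS3 also overlapped, at 1979 and 6549 in mutant replicates 1 and 2 against 3908 and 4303 in the wild-type ones.

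The depth of the libraries set what the thresholds meant in reads. A value of 8 required 16 and 15 reads in the 2 mutant libraries but 23 and 19 in the 2 wild-type ones. A value of at most 1 allowed 1 read in either mutant library and 2 in either wild-type library. A library with no read could still hide a transcript at levels up to 1.06 to 1.71 normalised reads, the value of 3 reads. Folds against a genotype with no read are therefore lower bounds, computed against 3 reads over its 2 libraries together. Bounds and intervals cover counting error only.

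The 17 genes read in the mutant only had mutant means from 9.87 to 1273 normalised reads, with a median of 43.3, and together held 8304 of the 37214496 mutant reads. In 9 of them neither wild-type library held a read. The genes are ordered here by read number, which is not adjusted for gene length and so does not rank them as transcripts.

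Solyc06g035940.2.1 on chromosome 6 stood at 1143 and 1404 in mutant meristems against 0 and 0.435 in wild-type meristems, where a single read was found. Its mutant mean was 1273 ± 185 (SD, n = 2). Solyc01g080740.1.1 on chromosome 1 stood at 415 and 375 in mutant meristems, 395 ± 28.4 (SD, n = 2), and had no read in the wild type, a level at least 678-fold higher in the mutant. These were the 2 genes of the mutant-only group with means above 100, and their replicates lay within 1.23-fold of each other.

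A middle group of 7 genes had mutant means between 43.3 and 81.5. Solyc04g019310.1.1 stood at 112 and 50.7 in mutant meristems and had no read in the wild type. Solyc04g016550.2.1, also on chromosome 4, was at 69.6 and 71.3 and likewise had no wild-type read. The levels of these genes were at least 142-fold and 120.4-fold higher in the mutant. Their replicates behaved differently: those of Solyc04g016550.2.1 were nearly equal, whereas those of Solyc04g019310.1.1 were 2.21-fold apart.

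Solyc09g055970.1.1 stood at 81.3 and 49.6 in mutant meristems against 0 and 0.435 in wild-type meristems, a ratio of 340.4 (95% exact interval from the read counts, 60.5 to 13499). Solyc08g014270.1.1 stood at 82.3 and 28.5 in mutant meristems with no wild-type read, at least 97.4-fold higher. The 2 mutant libraries differed most at this gene among the 17, by 2.89-fold.

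Solyc10g085080.1.1 stood at 53.9 and 49.6 in mutant meristems against 0.706 and 0 in wild-type meristems, a ratio of 133 (interval 36.3 to 1106). Solyc09g005460.1.1 had almost the same values, at 50.3 and 49.6 against 0.706 and 0, a ratio of 128 (interval 35 to 1066). In each case the wild-type signal was 2 reads of replicate 1. Solyc03g013200.1.1 was at 51.8 and 34.8 against 0.353 and 0.435, with 1 read in each wild-type library and a ratio of 112 (interval 30.6 to 935).

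The remaining 8 genes of the group had mutant means from 9.87 to 33.2. Solyc11g042860.1.1 stood at 21.3 and 45 in mutant meristems, Solyc01g108520.1.1 at 15.2 and 32.5, Solyc11g015900.1.1 at 16.3 and 26.8, Solyc09g005430.1.1 at 14.7 and 26.8, and Solyc04g040010.2.1 at 10.7 and 11.4. None of these 5 had a wild-type read, and each was higher in mutant replicate 2 than in replicate 1. Their levels were at least 18.8-fold to 55.6-fold higher in the mutant than the wild-type limit.

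The other 3 had wild-type reads and lay close to the thresholds, as Solyc04g040010.2.1 did to the minimum of 8. Solyc03g058400.2.1 stood at 12.7 and 17.7 in mutant meristems against 0.706 and 0.435 in wild-type meristems, where it had 3 reads, a ratio of 25.7 (interval 8.36 to 128). Solyc11g062290.1.1 was at 10.7 and 16 against 0.353 and 0.87, also with 3 wild-type reads, a ratio of 22.5 (interval 7.26 to 113). Solyc06g009990.1.1 was at 11.2 and 8.55 against 0.353 and 0, a ratio of 51 (interval 8.6 to 2068).

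The 13 genes read in the wild type only had fewer reads, with wild-type means from 11.4 to 49.8 and a median of 22.5. Together they held 1663 of the 51287903 wild-type reads. In 8 of them neither mutant library held a read, and none had a mean of 50 or more, against 7 of the 17 mutant-only genes.

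Solyc03g020040.2.1 had the highest mean of this group, at 30.4 and 69.2 in wild-type replicates 1 and 2, and stood at 0.508 and 0 in mutant meristems. Its ratio was 178 in favour of the wild type (interval 31.6 to 7050, with 1 mutant read), and its 2 wild-type libraries were 2.28-fold apart. Solyc12g044480.1.1 stood at 30.4 and 44.4 in wild-type meristems against 0 and 0.57 in mutant meristems, a ratio of 136 (interval 24.2 to 5416).

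Solyc09g011990.1.1 was at 46.6 and 22.6 in the wild type against 0 and 0.57, a ratio of 134 (interval 23.7 to 5302). Solyc08g044230.1.1 was at 38.1 and 27 in the wild type with no mutant read, at least 41.1-fold lower in the mutant. Solyc11g028180.1.1 was at 33.6 and 17 with no mutant read, at least 32.4-fold lower. All 3 were higher in wild-type replicate 1 than in replicate 2, by 1.41-fold to 2.06-fold.

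In 5 genes of the group the 2 wild-type libraries were 1.01-fold to 1.07-fold apart and the mutant held no read. Solyc12g082720.1.1 was at 23.7 and 23.1, Solyc08g062580.1.1 at 23.3 and 21.8, Solyc02g072330.1.1 at 20.1 and 20, Solyc12g044490.1.1 at 18.7 and 18.3, and Solyc02g077180.1.1 at 13.4 and 12.6. Their levels were at least 16.2-fold to 29-fold lower in the mutant.

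Solyc10g012210.1.1 was at 22.3 and 17.8 in the wild type and had 1 read in each mutant library, at 0.508 and 0.57, a ratio of 37.7 (interval 10.2 to 316). Solyc10g050330.1.1 was at 18 and 12.6 with no mutant read, at least 19.3-fold lower in the mutant. Solyc02g071440.2.1 was at 8.83 and 13.9 against 0.508 and 0, a ratio of 41.4 (interval 7.13 to 1662). It was the wild-type-only gene nearest the lower limit of 8.

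**Figure D1:**
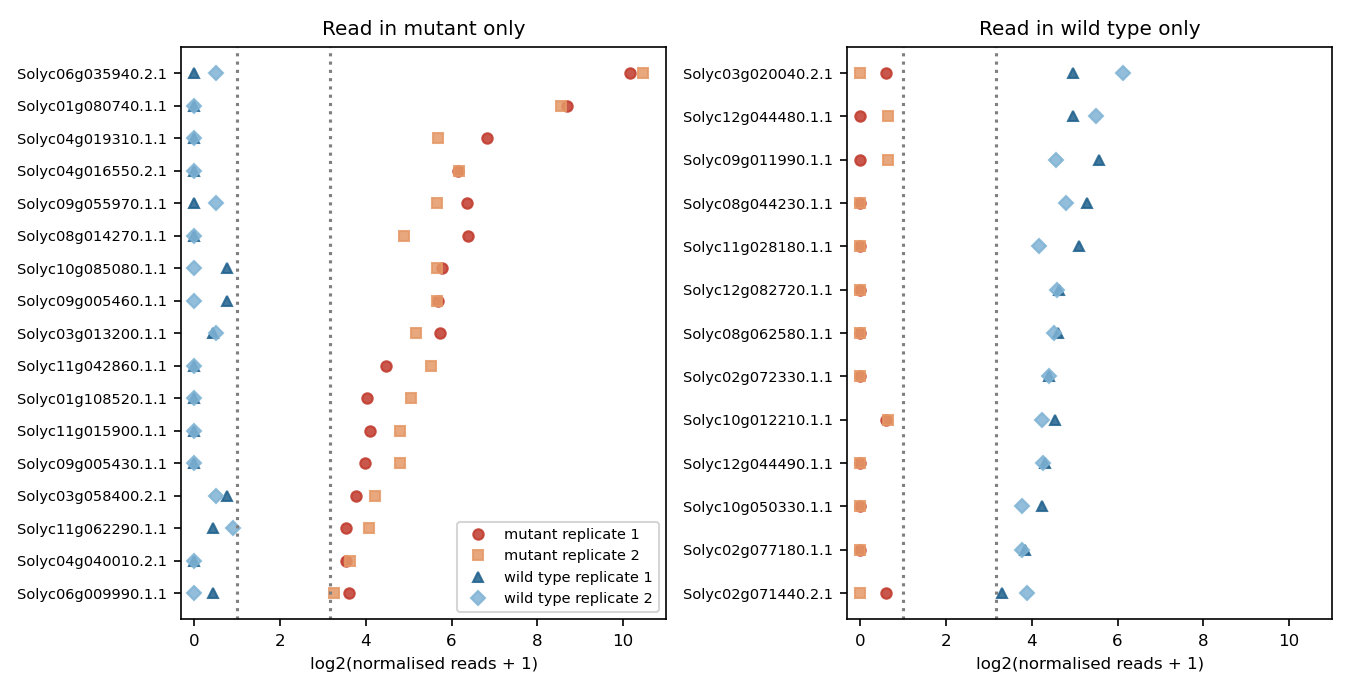
Level of each of the 17 mutant-only genes (left) and 13 wild-type-only genes (right) in the 4 libraries, as log2(normalised reads + 1), with dotted lines at the thresholds of 1 and 8. Points of the genotype with reads run up to 1404 normalised reads on the left and 69.2 on the right, and the other genotype stays at 0.87 or below.

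The values around the thresholds show where the selection ended. On the mutant side, Solyc06g009990.1.1 and Solyc11g062290.1.1 were the members nearest the limits. Just outside lay Solyc03g079970.1.1, at 903 and 1015 in mutant meristems against 1.06 and 0.435 in wild-type meristems, so that 1 read of wild-type replicate 1 kept it out, and Solyc01g108680.2.1, at 9.15 and 7.41 with no wild-type read. On the wild-type side, Solyc02g071440.2.1 was nearest within. Solyc02g077180.1.1 and Solyc10g050330.1.1 followed at the same distance, each at 12.6 in the lower wild-type library. Just outside were Solyc12g014510.1.1, at 9.54 and 21.3 in the wild type and 1.02 and 0 in the mutant, and Solyc08g013760.1.1, at 7.42 and 14.8 with no mutant read.

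All 30 genes passed the filter of a mean of at least 1 normalised read, which genes of this kind had to pass. In the limma fit over 21437 genes, 13 of the 17 mutant-only genes had an adjusted p under 0.05, where 0.131% of all genes tested were called higher in the mutant, and 12 of the 13 wild-type-only genes did, where 0.084% were called lower. The thresholds used the same difference, so nothing is read from these counts. The number called among the 30 fell from 25 to 3 without mutant replicate 1, to 14 without mutant replicate 2, and to 2 without either wild-type library.

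How far the 2 libraries of a genotype agreed varied among the genes. In the genotype with reads, the ratio of the higher to the lower library ranged from 1.01 to 2.89 over the 30 genes, with a median of 1.42. It was above 2 in 4 of 17 mutant-only and 2 of 13 wild-type-only genes. Among all genes with at least 8 normalised reads in both libraries of a genotype, the median ratio was 1.21 for mutant and 1.25 for wild-type libraries, and 7.06% and 5.33% exceeded 2. Those genes are mostly read at higher levels, where counting error is smaller. No single direction held in the mutant: 8 of 17 genes were higher in replicate 1, against 40.5% of all genes read at 8 or more in both mutant libraries. Of the 4 mutant-only genes more than 2-fold apart, Solyc04g019310.1.1 and Solyc08g014270.1.1 were higher in replicate 1, and Solyc01g108520.1.1 and Solyc11g042860.1.1 in replicate 2. In the wild type, 10 of 13 were higher in replicate 1, against 46.7% of all such genes.

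**Figure D2:**
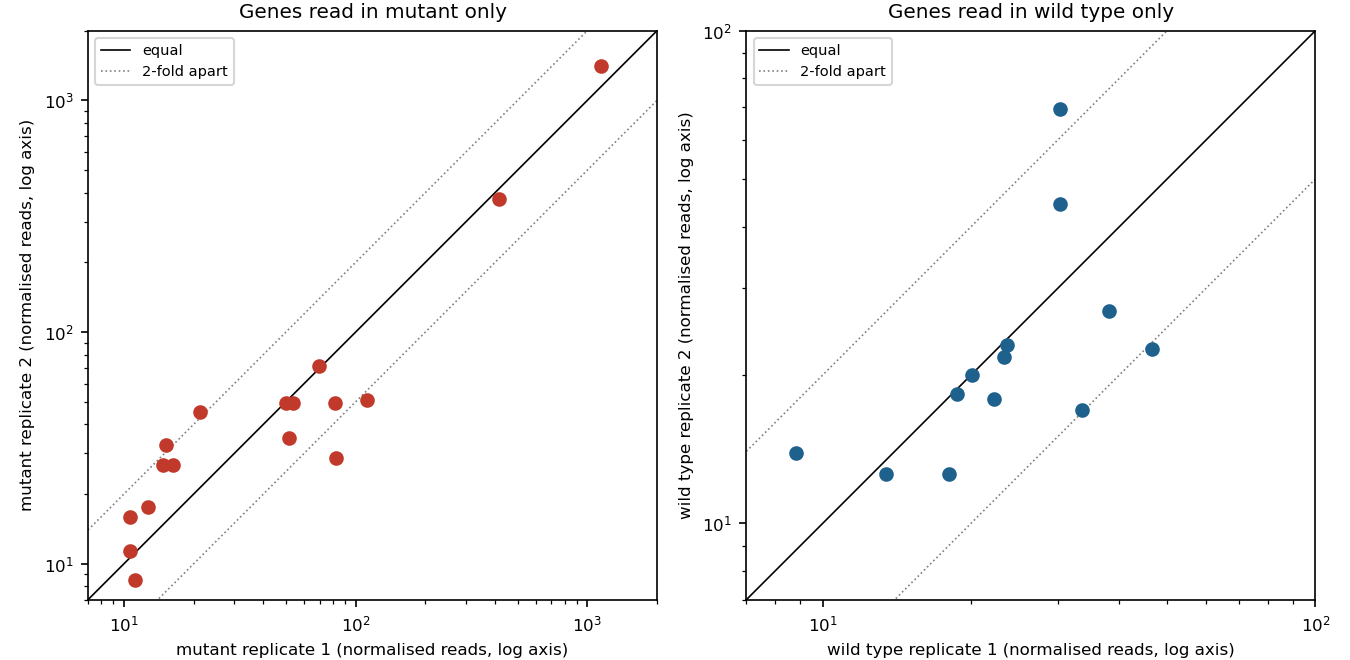
Replicate 1 against replicate 2, in normalised reads on log axes, for the 17 mutant-only genes in the mutant (left) and the 13 wild-type-only genes in the wild type (right). The solid line marks equal values and dotted lines a 2-fold difference, which 4 genes on the left and 2 on the right exceed.

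The 30 genes were spread over 10 of the 12 numbered chromosomes, with 2 to 4 on each. Chromosomes 5 and 7 held none, nor did the identifiers numbered 00. Chromosomes 9 and 11 held 4 each, chromosomes 2, 3, 4, 8, 10 and 12 held 3 each, and chromosomes 1 and 6 held 2 each. Per 1000 genes tested, the density on the chromosomes with members ranged from 0.725 on chromosome 1 to 2.74 on chromosome 11, against 1.4 over the whole table. Both directions occurred on chromosomes 3, 8, 9, 10 and 11. The members on chromosomes 1, 4 and 6 were all read in the mutant only, and those on chromosomes 2 and 12 all in the wild type only. With at most 4 genes on a chromosome, the spread is given as counts and was not tested.

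None of the members on chromosome 9 lay near TMF in this order. There, where TMF is place 2170 of 2510 listed identifiers, the closest was the mutant-only gene Solyc09g055970.1.1, 1009 places away. The wild-type-only gene Solyc09g011990.1.1 was 1579 places away, and the mutant-only genes Solyc09g005430.1.1 and Solyc09g005460.1.1 were 2126 and 2123 places away, at the other end of the order. Places count listed identifiers and are not physical distances.

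**Figure D3:**
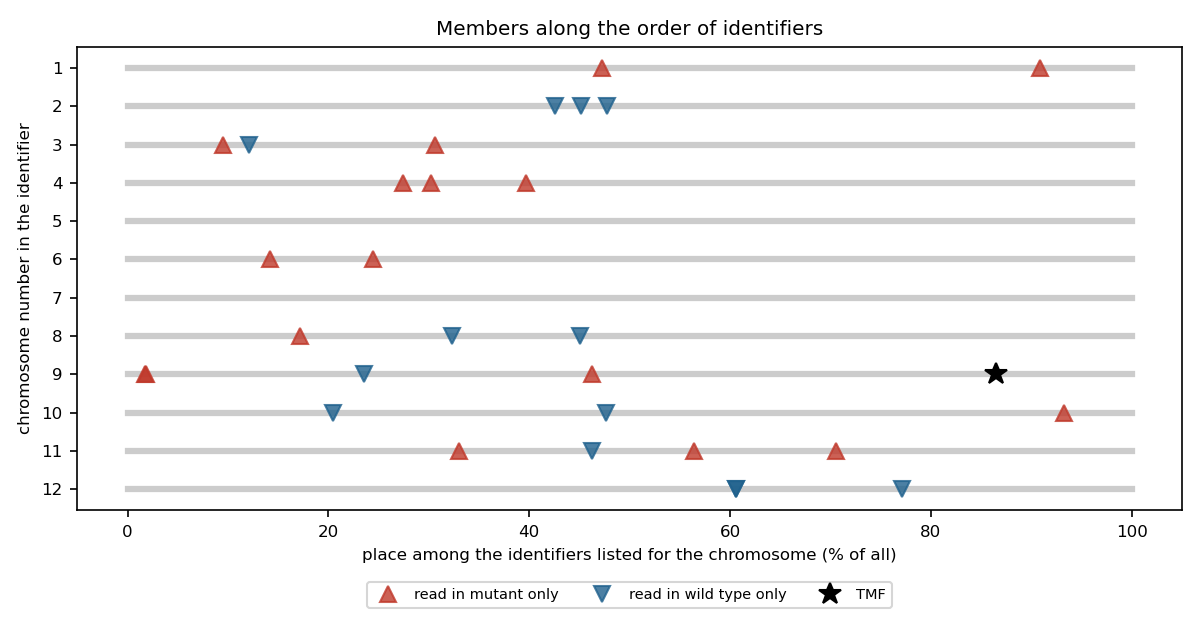
Position of the 17 mutant-only genes (upward triangles) and 13 wild-type-only genes (downward triangles) in the order of identifiers on chromosomes 1 to 12, as a percentage of the identifiers listed for the chromosome, with TMF as a star. Triangles occur on 10 chromosomes, and on chromosome 9 all 4 lie at least 1009 places from TMF.

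Most of the genes stood alone in this order. Only 4 of the 30 had another member within 5 listed places, in 2 pairs, and each pair was read in a single genotype. Solyc09g005430.1.1 and Solyc09g005460.1.1, both read in the mutant only, were 3 places apart. Solyc12g044480.1.1 and Solyc12g044490.1.1, both read in the wild type only, were adjacent. The other 26 had their nearest fellow member 76 to 1869 places away. Among these were 3 wild-type-only genes of chromosome 2, Solyc02g071440.2.1, Solyc02g072330.1.1 and Solyc02g077180.1.1, which followed each other at 88 places. With a minimum of 20 in place of 8 no pair was left, because 1 gene of each then dropped out.

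Levels of the neighbouring genes were not used in the choice, so they were compared between genotypes in the fit over all genes. The question was whether the difference at a member extended to the genes beside it. The nearest tested identifier on each side, members excepted, gave 58 distinct genes at 1 to 18 places. Their median log2 difference, mutant minus wild type, was 0.22, against 0.04 over all genes tested, and 14 of the 58 (24.1%) differed by at least 1 on the log2 scale, against 7.65% of all genes. These neighbours were read less than other genes, with a median level of 18.9 against 147 normalised reads, and small counts scatter more; the part of this in the shares was not tested. At an unadjusted p under 0.05 limma gave 15 of the 58, where the share over all genes was 6.2%. The libraries of the 2 genotypes did not overlap in 26 of the 58 (44.8%), against 32.8% of all genes. The 14, the 15 and the 26 each include the same 8 neighbours with no read in either library of 1 genotype. These 8, described below, passed the filter through the genotype with reads, so the shares are a description and are not used as support.

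After adjustment, 2 of the 58 neighbours passed (limma, adjusted p under 0.05), where 0.215% of all genes tested did. Both lay beside genes read in the wild type only, and they changed in opposite directions. Beside the 17 mutant-only genes none of the 34 neighbours passed in this limma fit, with 9 at an unadjusted p under 0.05. None passed in edgeR or DESeq2 on the recovered reads, where 0.252% and 0.998% of all genes did. With a block for replicate number in the limma fit, Solyc11g015910.1.1 passed, where 1.72% of all genes did. For 18 of the 30 genes both nearest tested neighbours differed by less than 1 on the log2 scale, for 9 one of them did, and for 3 neither did. In direction, 23 of the 34 neighbours of mutant-only genes were above 0, and 9 of the 26 neighbour positions of wild-type-only genes were below 0, against 55.7% and 44.3% of all genes. Both counts include neighbours with no read in 1 genotype.

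The first neighbour that passed changed the same way as its member. Solyc02g077170.1.1, adjacent to Solyc02g077180.1.1, stood at 58.6 and 78.8 in wild-type meristems against 2.54 and 5.7 in mutant meristems, a log2 difference of -3.82 ± 0.48 (SE; limma adjusted p = 0.027). The 2 adjacent genes were thus both higher in the wild type, while the identifier on the other side, Solyc02g077190.1.1, stood at 19.3 and 16.5 in mutant meristems against 13.1 and 17.8 in wild-type meristems. The call on Solyc02g077170.1.1 was lost with a pseudocount of 0.1 (adjusted p = 0.052) and without mutant replicate 1 (0.16), wild-type replicate 1 (0.81) or wild-type replicate 2 (0.52), with a log2 difference of -3.36 or beyond in each.

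The second changed the opposite way. Solyc03g020030.2.1, adjacent to the wild-type-only gene Solyc03g020040.2.1, stood at 60 and 74.1 in mutant meristems against 1.06 and 4.79 in wild-type meristems, a log2 difference of 4.29 ± 0.57 (SE; limma adjusted p = 0.034). One gene of this adjacent pair was thus read mainly in the mutant and the other in the wild type. Solyc03g020020.2.1, on the far side of the pair, stood at 1692 and 1869 in mutant meristems against 2428 and 1386 in wild-type meristems, with overlapping genotypes. The next tested gene after Solyc03g020040.2.1, Solyc03g025110.1.1 at 8 places, stood at 43.2 and 18.2 in mutant meristems against 1.77 and 6.09 in wild-type meristems (limma adjusted p = 0.27). It passed in DESeq2, which called 3 of the 58 neighbours (this gene and the 2 called by limma) and 0.998% of all genes tested. It also passed in the fits with either block. The call on Solyc03g020030.2.1 was lost with a pseudocount of 0.1 (adjusted p = 0.085) and without mutant replicate 1 (0.23), mutant replicate 2 (0.12), wild-type replicate 1 (0.69) or wild-type replicate 2 (0.32), while its log2 difference stayed at 3.55 or above. The sources used here do not say how reads matching several genes were counted, and adjacent or similar genes may share reads.

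**Figure D4:**
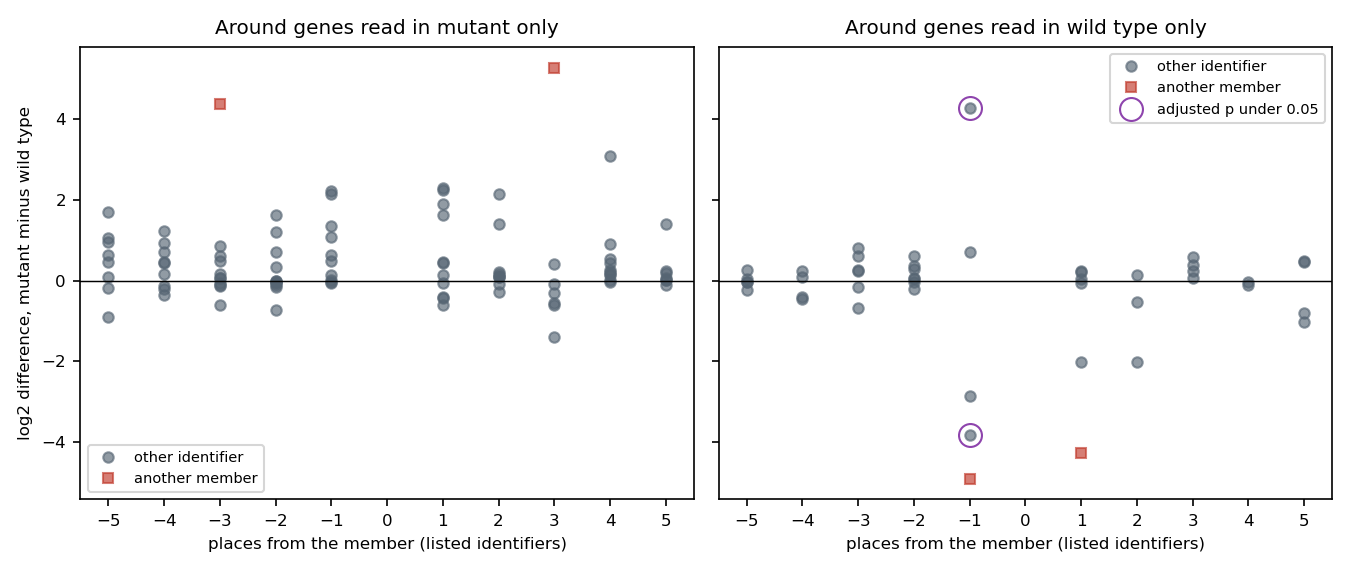
Log2 difference, mutant minus wild type, of tested identifiers up to 5 listed places from a mutant-only gene (left) or a wild-type-only gene (right). Squares are other members and filled circles other identifiers. Large open circles mark the 2 neighbours with an adjusted p under 0.05, both 1 place before a wild-type-only gene, at -3.82 and 4.29.

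A further pattern was found among the neighbours with few reads. Of the 58 neighbours, 8 had no read in either library of 1 genotype and reads in both libraries of the other, and in all 8 the genotype with reads was that of the member beside them. This held for 13.8% of the neighbours, against 0.411% of tested genes that are no members. Among tested genes with a mean under 5 normalised reads, it held for 8 of 17 neighbours (47.1%) and for 3.21% of 2616 non-members. All 8 had a mean under 5 normalised reads and passed the filter on low values through the genotype with reads. The count was made after the values of the neighbours were seen, is a description, and is not used as support. None of the 8 passed in the main limma fit (adjusted p from 0.15 to 0.67). With a block for replicate number in that fit, Solyc11g028170.1.1 and Solyc11g030380.1.1 passed, where 1.72% of all genes did.

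On chromosome 9 such genes formed a run of 4 consecutive identifiers read in the mutant. Between the members Solyc09g005430.1.1 and Solyc09g005460.1.1 lay Solyc09g005440.1.1, at 2.54 and 1.71 in the mutant, and Solyc09g005450.1.1, at 4.07 and 2.85. Neither had a wild-type read, and the 4 identifiers together had 2 reads in the wild type, both in replicate 1. Outside the run, Solyc09g005470.2.1 was read in both genotypes, at 110 and 129 in mutant meristems against 78.1 and 99.7 in wild-type meristems. On the other side, Solyc09g005420.2.1 had 3 reads in mutant replicate 1 only, Solyc09g005410.1.1 had none in any library, and Solyc09g005400.2.1 was at 20.8 and 19.4 against 13.1 and 28.3. Beyond Solyc09g005470.2.1, in which both mutant libraries were also the higher ones, Solyc09g005480.2.1 stood at 433 and 300.4 in mutant meristems against 98.9 and 183 in wild-type meristems (limma adjusted p = 0.29). Genes read in both genotypes thus lay on either side of the run. At Solyc09g005470.2.1 and Solyc09g005480.2.1 both mutant libraries were above both wild-type ones, as in 20.7% of all genes tested. The next identifier, Solyc09g005490.1.1, went the other way, at 0 and 0.57 in mutant meristems against 1.06 and 4.35 in wild-type meristems. Beyond Solyc09g005400.2.1, Solyc09g005390.2.1 was higher in the mutant, at 300 and 273 against 179 and 248. Solyc09g005380.1.1 was lower there, at 1.52 and 2.28 against 2.83 and 6.53.

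Chromosome 12 held a run of 3 consecutive identifiers read in the wild type. After the members Solyc12g044480.1.1 and Solyc12g044490.1.1 came Solyc12g044500.1.1, at 3.53 and 2.61 in the wild type with no mutant read. Before them, Solyc12g044470.1.1 had 1 read, in wild-type replicate 2, and Solyc12g044450.1.1 was read in both genotypes, at 30 and 42.8 in mutant meristems against 20.1 and 26.5 in wild-type meristems. The 3 identifiers after the run, Solyc12g044520.1.1, Solyc12g044530.1.1 and Solyc12g044540.1.1, had no read in any library, so the data give no level beyond the run on that side.

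Neighbours of 3 of the 4 members on chromosome 11 are given by their values. Solyc11g015900.1.1 was flanked by Solyc11g015890.1.1, at 1.52 and 2.28 in the mutant against 0 and 0.87, and Solyc11g015910.1.1, at 11.2 and 6.27 against 0.353 and 1.74 (limma adjusted p = 0.37). Further along, at 4 places, Solyc11g016930.1.1 was at 18.3 and 31.9 against 1.77 and 2.18 (limma adjusted p = 0.086), and the next identifier, Solyc11g016940.1.1, was nearly equal in all libraries, at 105 and 101 against 96.8 and 98.8. On the other side, at 2 places, Solyc11g013890.1.1 was at 32 and 45.6 against 14.5 and 17.8. In each of these neighbours, Solyc11g016940.1.1 included, wild-type reads were present. Both mutant libraries were above both wild-type ones in each, as was the case for 20.7% of all genes tested. At Solyc11g013880.1.1, 1 place further out, the genotypes overlapped, at 150 and 164 against 180 and 163.

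Beside Solyc11g042860.1.1, Solyc11g042850.1.1 had no mutant read and was at 0.353 and 0.87 in the wild type, 3 reads in all. On the other side the adjacent Solyc11g042870.1.1 stood at 4.07 and 3.42 in mutant meristems with no wild-type read, and the one after it, Solyc11g042880.1.1, stood at 360 and 368 in mutant meristems against 254 and 462 in wild-type meristems. Beside the wild-type-only gene Solyc11g028180.1.1, Solyc11g028170.1.1 was at 6 and 6.53 in the wild type with no mutant read (limma adjusted p = 0.15). The next tested identifier on the other side, Solyc11g030380.1.1 at 16 places, was at 6 and 4.79 in the wild type and also had no mutant read (limma adjusted p = 0.19). The remaining pair of the 8 lay beside mutant-only genes. Solyc09g055980.1.1, adjacent to Solyc09g055970.1.1, stood at 5.59 and 1.14 in mutant meristems, and Solyc03g013190.1.1, adjacent to Solyc03g013200.1.1, was at 9.15 and 1.14.

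**Figure D5:**
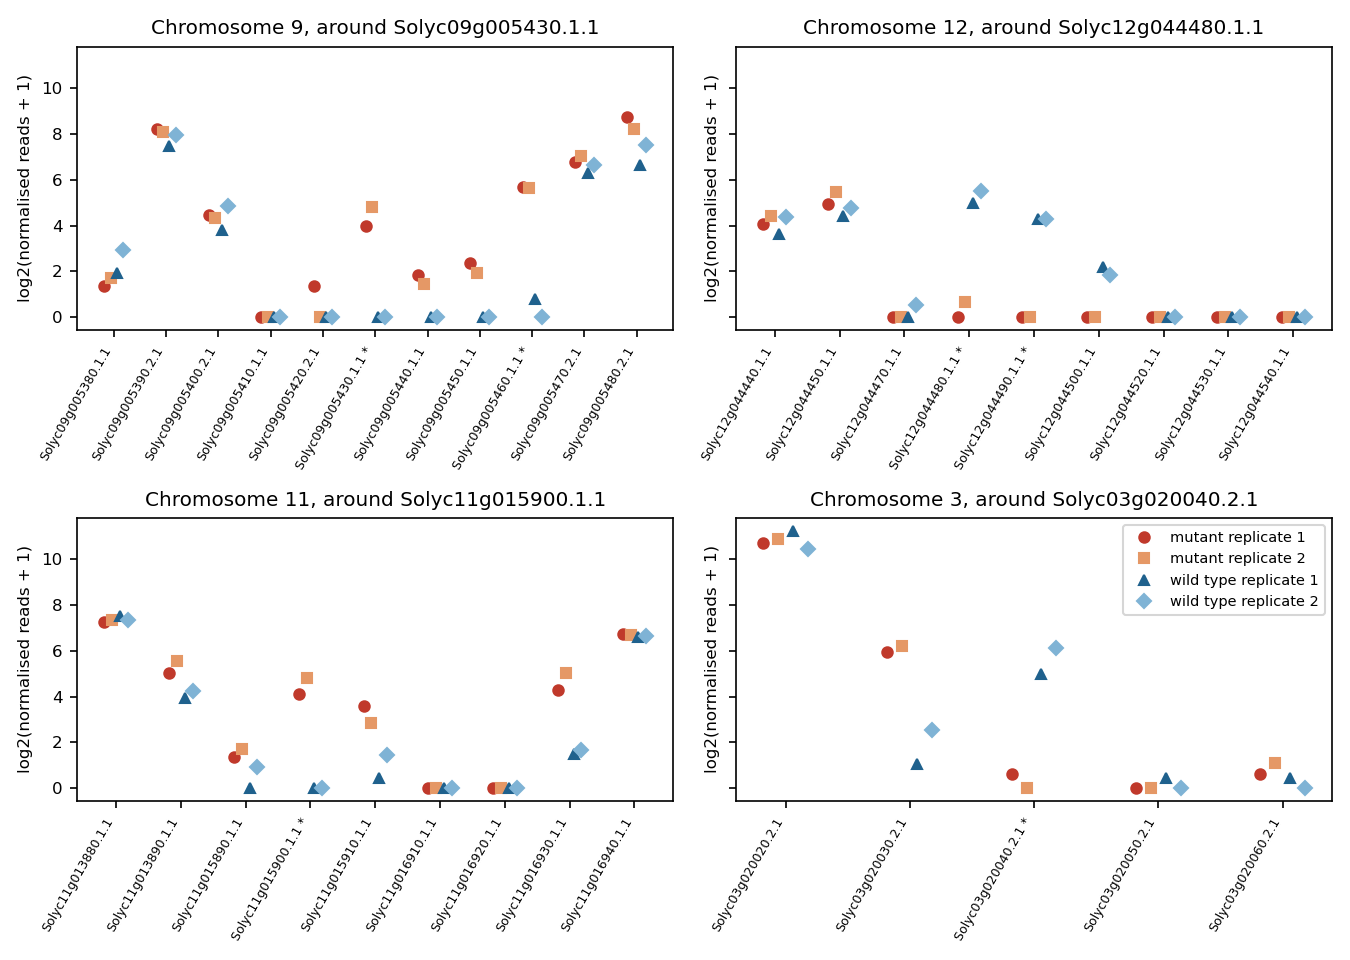
Levels of consecutive identifiers around 4 members in the 4 libraries, as log2(normalised reads + 1), with members marked by an asterisk. The chromosome 9 panel shows 4 neighbouring identifiers read in the mutant and the chromosome 12 panel 3 read in the wild type, while in the chromosome 3 panel the adjacent Solyc03g020030.2.1 and Solyc03g020040.2.1 are read in opposite genotypes.

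The 2 members with the most reads stood beside genes that were read in both genotypes and did not pass the test. Adjacent to Solyc06g035940.2.1, Solyc06g035960.2.1 stood at 4.07 and 9.12 in mutant meristems against 7.06 and 10.4 in wild-type meristems. On the other side, at 2 places, Solyc06g035920.2.1 stood at 68.6 and 102 in mutant meristems against 67.1 and 115 in wild-type meristems. Solyc06g035970.2.1, 2 places after the member, was at 2140 and 2336 against 2869 and 2577, with both mutant libraries below both wild-type libraries. Beside Solyc01g080740.1.1, Solyc01g080720.2.1 was at 140 and 128 against 143 and 138. Its other neighbour, Solyc01g080750.2.1, was at 1987 and 1398 against 2084 and 3093 (limma adjusted p = 0.85). There too both mutant libraries were below both wild-type libraries. The genotypes did not overlap, in either direction, in 32.8% of all genes tested. Differences of the size seen at these 2 members were thus not found at the genes 1 or 2 listed places away.

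Other members lay among unread identifiers. Over the 5 listed places on each side of all members, 105 of 282 identifiers (37.2%) had no read in any library, against 25.2% of all listed identifiers, and 45.4% passed the filter, against 61.7%. Around Solyc10g050330.1.1, the 10 surrounding identifiers had 4 reads in total over the 4 libraries, and 8 of them had none. The version suffix of the identifiers, whose meaning is not given in the sources used here, was also counted. Of the 30 members 24 (80%) carried the suffix seen in Solyc01g080740.1.1 and the other 6 that seen in Solyc06g035940.2.1. The first was carried by 54.9% of all listed identifiers, by 36.5% of genes tested and by 35.4% of tested genes whose mean lay in the members' range of 5.02 to 637 normalised reads.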

How the data were processed

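Each gene has a deposited signal value in each of the 4 libraries, which the authors scaled to a library total of 10000000. Bowtie 0.12.5 and edgeR were used per the submitters' processing notes. Not given in the sources used here are the annotation, build, counting tool and strand handling. Dividing by the smallest value above 0 returned whole reads for 100% of values (tolerance 1e-06). No column was left out. The members and lists were chosen with earlier results of these data known.

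Genotypes were compared with limma 3.58.1 in R 4.3.3 (mean-variance trend, log2(value + 1), genes with a mean of at least 1, genotype as the only term), with Benjamini-Hochberg adjustment over all 21437 genes and a threshold of 0.05; such folds understate changes of low genes. The fit was also run on simulated counts. No gene was set to be absent from 1 genotype there, so that run does not bear on genes of this kind. Alternatives were edgeR 4.0.16 and DESeq2 1.42.0 on the recovered reads, a pseudocount of 0.1, no filter, a replicate block, each library left out, and other thresholds. All members are named, with their nearest identifiers that passed, those near the thresholds and TMF; the other neighbours were picked after their values were seen. Deviations of same-numbered libraries correlated at -0.109, so the numbers were not taken to pair the libraries. Marker identifiers and that of TMF rest on published nomenclature. The reference table (assembly SLM_r2.1) places the named markers on the same chromosome and has no entry for TMF; 1 further fruit marker lay on another chromosome and is not named.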

Additional observations from a re-analysis of the deposited data

How the results depend on the processing

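The number of members followed the thresholds. There were 10 mutant-only and 7 wild-type-only genes with a minimum of 20, 38 and 26 with a minimum of 4, and 9 and 8 with no read allowed in the other genotype; rescaling by TMM or DESeq2 size factors left all 30 genes. With 1 library left out, which loosens the rule by construction, the counts ranged from 21 to 40 mutant-only and from 14 to 18 wild-type-only genes. Of 4 members with another within 5 places, 2 were adjacent, and 0 remained with a minimum of 20. The 46 genes called by limma became 214 with DESeq2, 368 under a replicate block, and 219 under a block that crossed the numbers, which was chosen after seeing the data, and 6 to 43 when 1 library was left out; the cause was not tested. The 2 neighbours called became 3 with DESeq2, 0 with a pseudocount of 0.1, 6 under the replicate block, 3 under the crossed one, and 0 to 1 when 1 library was left out. Nothing in the labels pairs the libraries by number, so the blocked counts carry no extra weight. TMF kept its sign and call in all 10 alternatives, with log2 differences from -8.27 to -7.43 when 1 library was left out. With 2 libraries a genotype and members with as few as 15 reads in a library, depth limits what can be said of genes near the thresholds.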
